A study of Mus musculus with 6 samples.

Results

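The genes described are 8 integrin subunits, *Itgae*, *Itga4*, *Itgb7*, *Itgb1*, *Itgal*, *Itgb2*, *Itgav* and *Itgb3*, and the hyaluronan receptor gene *Cd44*. They were taken by name from the deposited expression table, where they are 9 of the 16381 genes listed, and all 9 were among the 14419 genes tested. The table came from group 2 innate lymphoid cells (ILC2s) of wild-type BALB/c mice aged 6 to 8 weeks, whose lungs had been exposed to the alarmin IL-33, 0.5 µg a day for 3 days, so that every sample held activated cells (aILC2s). The cells were sorted from lung as live CD45+, ST2+ and CD127+ cells negative for a lineage panel (CD3ε, CD4, CD5, TCRβ, TCRγδ, B220, CD335, CD11c, CD11b, Gr-1, FcεRIα and Ter119), to a stated purity above 95% and cultured for 24 h with 250 µM melatonin, the pineal hormone, or with DMSO as vehicle. Bulk RNA libraries were sequenced from 3 melatonin and 3 vehicle samples. The comparison asks which transcripts differ in aILC2s after melatonin. None of the labels says whether the 3 samples of a group came from separate mice or cultures, so the p-values measure only the spread between these samples, which may be technical. The cells were studied outside the lung, and surface protein, ligand binding and adhesion were not measured in these data.

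Integrins are paired membrane receptors of 1 α and 1 β chain, and a chain reaches the cell surface only once it has found its partner. αE pairs only with β7, and αEβ7 (CD103) holds lymphocytes to E-cadherin on epithelium. α4 pairs with β7 to bind MAdCAM-1, or with β1 to bind VCAM-1 and fibronectin, and αL pairs with β2 to form LFA-1, the leukocyte receptor for ICAMs. αV pairs with β3, β1 and other β chains to bind proteins carrying an RGD motif, among them vitronectin, fibronectin and the latency peptide of TGF-β. CD44 is a single-chain receptor that holds leukocytes to hyaluronan. On lymphocytes the integrins are switched from a resting to a binding state by talin and kindlin, which bind the β chain from inside the cell.

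Estimated counts summed to between 17056266 and 20511700 per sample. The ILC2 markers were all present, 12 of 12 above a floor of 3 estimated counts in every sample, with summed normalised counts of 145395 to 153588 in vehicle and 111545 to 113941 in melatonin samples. Markers of NK cells or ILC1 (6 of 6 listed) summed to between 6020 and 7285 in vehicle and between 85.0 and 214 in melatonin samples, led by *Gzma*, and their defining receptor gene *Ncr1* was at 106 ± 7.01 and 0.34 ± 0.58. T cell markers (6 of 10 listed, with *Cd4*, *Cd8a*, *Cd8b1* and *Cd5* unlisted) summed to 6049 to 6577 and to 2127 to 3175. They were led by *Trbc2*, with means of 3558 in vehicle and 1455 in melatonin samples, while *Trac* was at 8.34 ± 4.15 and 0.96 ± 0.93. The macrophage or dendritic cell markers (6 of 7 listed) summed to between 1967 and 2127 and between 1164 and 1379. Of the 6 epithelial markers, 5 were called lower, among them *Sftpc* (222 ± 146 in vehicle and 5.01 ± 1.80 in melatonin samples) and *Scgb1a1* (387 ± 571 and 0.34 ± 0.58, highest in vehicle replicate 3), while *Epcam* was higher. The B cell marker *Cd79b* fell from 297 ± 16.9 to 142 ± 15.6. Platelet markers (2 of 5 listed) summed to no more than 62.5 in any sample and fibroblast markers were unlisted. The Y-linked transcripts *Ddx3y*, *Uty*, *Kdm5d* and *Eif2s3y* were present in the 3 vehicle samples and in melatonin replicate 1 and listed at 0 in melatonin replicates 2 and 3, in which *Xist* was high, although the study's methods describe female mice. Values are therefore also given for melatonin replicate 1 alone against the 3 vehicle samples, a fit in which the lone sample is assumed to vary like the vehicle samples. The library numbers in the labels run in separate blocks for the melatonin and vehicle groups, and a batch that followed them cannot be told apart from the treatment.

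After melatonin, the β3, β1 and αV transcripts rose, and the αE, β2 and αL transcripts fell. The largest rise among the 9 was that of *Itgb3*, 2.89-fold in group means, and the largest fall was that of *Itgae*, to 0.229 of the vehicle mean. By limma with Benjamini-Hochberg adjustment over all 14419 genes, 3 of the 9 were called higher, beside 24.5% of all genes, and 3 were called lower, beside 24.7%. The share of the 9 called in either direction, 66.7%, stood beside 49.2% over all genes. The groups did not overlap for 8 of the 9 genes, *Cd44* being the exception, beside 60.4% of all genes. The median log2 fold change over the 9 was -0.19, and that over all genes was -0.00. The number called lower rested on single libraries, since it was 1 without vehicle replicate 2 and 5 without melatonin replicate 1.

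**Figure D1:**
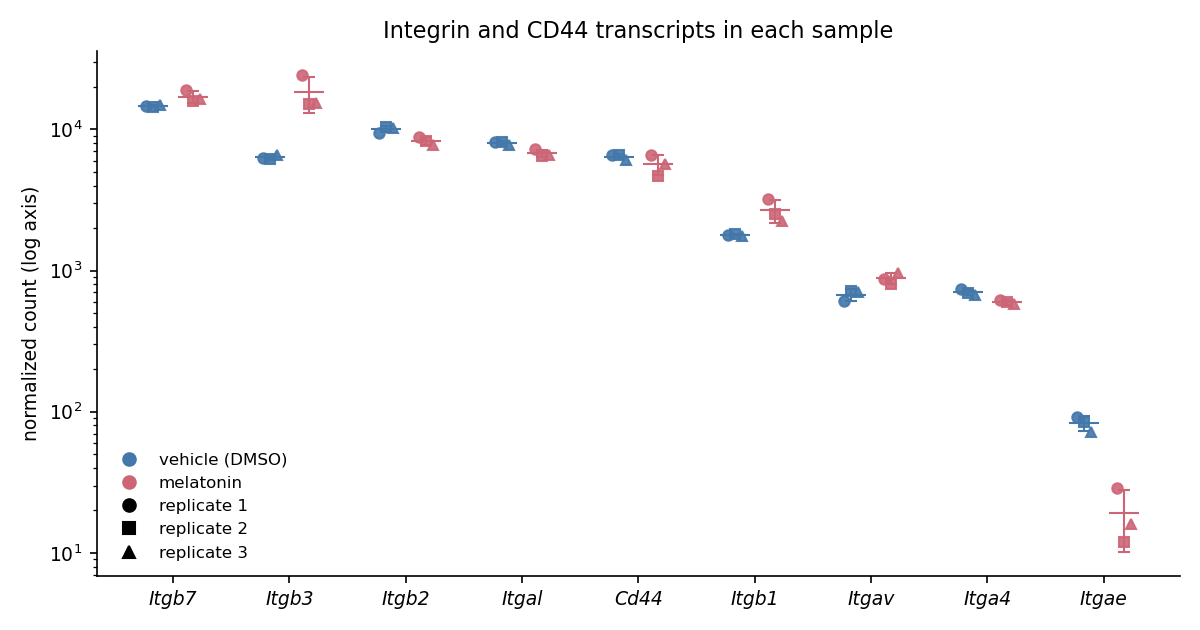
Normalised counts (log axis) of the 9 genes in each of the 3 vehicle and 3 melatonin samples, with long bars for group means and error bars for 1 SD. The *Itgb3* values lie between 6126 and 6644 in vehicle and between 15165 and 24463 in melatonin samples, while those of *Itgae* lie between 72.4 and 92.4 and between 12.0 and 28.9.

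*Itgb3* encodes β3, which pairs with αV or with the platelet chain αIIb (*Itga2b*). Its normalised counts were 6259, 6126 and 6644 in the vehicle samples and 24463, 15165 and 15358 in the melatonin samples. Every melatonin sample thus held more than 2-fold the highest vehicle value, and replicate 1 stood above the other two. The log2 fold change was 1.49 (SE 0.17, 95% interval 1.11 to 1.87, adjusted p = 0.00024, limma). It was 1.27 without melatonin replicate 1 and 1.95 with that replicate alone, so the call held but the size moved with this library. *Itgb3* (ENSMUSG00000020689) lies at chr11:104498826-104561302 on the plus strand of GRCm39 and its canonical transcript has 15 exons.

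*Itgav*, the gene of αV (ENSMUSG00000027087, chr2:83554403-83637260, plus strand), rose less. It was measured at 604, 711 and 710 in vehicle and at 878, 802 and 963 in melatonin samples. The groups were separate, with a log2 fold change of 0.38 (SE 0.11, interval 0.14 to 0.63, adjusted p = 0.018, limma). The call was lost without vehicle replicate 1 (0.31) and without melatonin replicate 3 (0.32), and with melatonin replicate 1 alone the change was 0.38. *Itgb1* (ENSMUSG00000025809, chr8:129411876-129460618, plus strand) encodes β1, which pairs with αV, α4 and many other α chains. Its counts were 1787, 1819 and 1745 in vehicle and 3224, 2537 and 2246 in melatonin samples. All melatonin values lay above all vehicle values, and replicate 1 was again the highest. *Itgb1* rose by a log2 fold change of 0.57 (SE 0.12, interval 0.28 to 0.85, adjusted p = 0.0056, limma), with 0.42 without melatonin replicate 1 and 0.85 with that replicate alone.

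The 250 bases before the annotated start of *Itgb3* and *Itgb1*, the β chains that rose, are shown because both hold the GC box GGGCGG, the letters bound by SP1. Capitals mark the matches to the motifs searched, on either strand.
*Itgb3*, chr11:104498576-104498825, plus strand: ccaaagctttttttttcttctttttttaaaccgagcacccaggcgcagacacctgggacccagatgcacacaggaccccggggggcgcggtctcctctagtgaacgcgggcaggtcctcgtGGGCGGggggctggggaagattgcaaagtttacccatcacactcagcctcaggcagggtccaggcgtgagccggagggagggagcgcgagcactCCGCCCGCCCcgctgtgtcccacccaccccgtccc
*Itgb1*, chr8:129411626-129411875, plus strand: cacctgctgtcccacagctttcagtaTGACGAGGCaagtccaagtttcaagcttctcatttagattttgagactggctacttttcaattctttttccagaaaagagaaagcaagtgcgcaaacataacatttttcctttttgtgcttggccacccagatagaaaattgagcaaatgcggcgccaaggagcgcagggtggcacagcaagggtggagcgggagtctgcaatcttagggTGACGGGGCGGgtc
The *Itgb3* window held 3 matches, of which the pair ending 30 and 26 bases before the start share letters, with 17 CpG dinucleotides and a GC content of 64.4%. The *Itgb1* window held 1 such match, 9 to 4 bases before the start. It overlaps a match to TGACNNNGC, the core of the antioxidant response element, at 14 to 6 bases, and another such match lies at 224 to 216 bases. Over 12064 windows of the same length before tested genes, 49.8% held the GC box and 10.7% held TGACNNNGC. The median window had a GC content of 56.8% and 13 CpG dinucleotides. These matches describe the letters of the window and not binding.

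*Itgae* encodes αE, the epithelial tether CD103. Its normalised counts were 92.4, 84.3 and 72.4 in vehicle and 28.9, 12.0 and 16.1 in melatonin samples. All 3 melatonin values lay below the lowest vehicle value, and none was at the floor of about 3 counts. The mean fell from 83.0 ± 10.1 to 19.0 ± 8.84 (SD, n = 3 each), a log2 fold change of -2.15 (SE 0.33, interval -2.91 to -1.40, adjusted p = 0.0010, limma). With melatonin replicate 1 alone the change was -1.48, and it remained called. *Itgae* was the least abundant of the 9 genes and had the widest interval. The summed T cell, B cell, NK cell or ILC1 and macrophage or dendritic cell markers moved the same way as *Itgae*. So did 5 of the 6 epithelial markers. The summed ILC2 markers also fell, with 7 of the 12 called lower and 2 called higher. The lineage panel of the sort was directed against T cells, B cells, NK cells and cells with CD11b or CD11c. The CD45+ gate was directed against epithelial cells. Markers of each of these types were still listed in the samples. The part of any of these cells in this fall was not tested. In bulk samples, fewer cells of a type and less RNA per cell cannot be told apart.

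*Itgae* (ENSMUSG00000005947) lies at chr11:72981409-73039917 on the plus strand, with 31 exons in its canonical transcript. *Haspin*, the gene of a mitotic histone kinase, lies inside it on the opposite strand at chr11:73026311-73029120. The libraries did not keep strand, so reads of the pair cannot be told apart there. *Haspin* was measured at 1211 ± 51.9 normalised counts in vehicle and 1339 ± 108 in melatonin samples, with a log2 fold change of 0.14 (adjusted p = 0.21, limma). The window before *Itgae* is shown because it was the 1 window of the 9 that held TGTGGT, the letters bound by RUNX factors, which are in capitals 96 to 91 bases before the start.
*Itgae*, chr11:72981159-72981408, plus strand: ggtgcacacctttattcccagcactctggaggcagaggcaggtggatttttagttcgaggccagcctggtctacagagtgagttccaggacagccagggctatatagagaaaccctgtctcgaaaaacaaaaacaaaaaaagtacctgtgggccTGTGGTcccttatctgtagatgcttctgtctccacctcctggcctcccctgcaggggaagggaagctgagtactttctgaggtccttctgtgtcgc
Over the 12064 windows, 11.8% held these letters. *Runx3*, the RUNX factor that CD8 T cells need for CD103, fell from 1736 ± 69.1 to 1040 ± 105 normalised counts (log2 fold change -0.74, adjusted p = 0.00043, limma). The match describes letters and not binding, and the part of *Runx3* in the fall of *Itgae* was not tested.

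*Itgb7*, the gene of β7 (ENSMUSG00000001281, chr15:102124429-102140379, minus strand), did not move with *Itgae*. It was measured at 14712, 14348 and 14835 in vehicle and at 19099, 15867 and 16361 in melatonin samples. The melatonin values were all above the vehicle values by a small margin, and replicate 1 was the highest. The log2 fold change of 0.22 (SE 0.09, interval 0.02 to 0.42) gave an adjusted p of 0.066 by limma, above the threshold of 0.05. The adjusted p stayed above the threshold whichever library was left out, with changes from 0.14 without melatonin replicate 1 to 0.27 without melatonin replicate 2. With melatonin replicate 1 alone the change was 0.38 with an adjusted p of 0.0022 (limma).

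*Itga4* (ENSMUSG00000027009, chr2:79085660-79163467, plus strand) encodes α4, which shares β7 with αE. Its counts were 737, 695 and 675 in vehicle and 623, 595 and 576 in melatonin samples. The groups were separate but close, and the log2 fold change of -0.23 (SE 0.09, interval -0.44 to -0.03) was not called (adjusted p = 0.061, limma). The value was -0.26 and called without melatonin replicate 1, and -0.17 and not called with that replicate alone. *Cerkl*, which overlaps the 3′ end of *Itga4* on the opposite strand, rose from 37.1 ± 4.79 to 69.8 ± 17.6 normalised counts (adjusted p = 0.019, limma), and reads from the shared stretch cannot be told apart.

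Both chains of LFA-1 fell, by nearly the same amount. *Itgal*, the gene of αL (ENSMUSG00000030830, chr7:126895432-126934320, plus strand), had normalised counts of 8194, 8170 and 7782 in vehicle and 7232, 6441 and 6618 in melatonin samples. No melatonin value reached the lowest vehicle value, and the log2 fold change was -0.25 (SE 0.08, interval -0.42 to -0.08, adjusted p = 0.022, limma). *Itgb2*, the gene of β2 (ENSMUSG00000000290, chr10:77366086-77401542, plus strand), had 9475, 10347 and 10272 in vehicle and 8804, 8270 and 7700 in melatonin samples. These groups were also separate, with a log2 fold change of -0.28 (SE 0.08, interval -0.46 to -0.10, adjusted p = 0.019, limma). Neither call held whichever library was left out. The *Itgal* change was not called without vehicle replicate 1 (-0.24), vehicle replicate 2 (-0.24) or melatonin replicate 2 (-0.22), nor the *Itgb2* change without vehicle replicate 2 or vehicle replicate 3 (-0.26 in each). With melatonin replicate 1 alone the changes were -0.15 for *Itgal* and -0.19 for *Itgb2*, neither called. αL and β2 are also carried by NK cells, T cells and macrophages, whose summed markers were lower in the melatonin samples. The sort was gated against CD3ε, TCRs, CD335, CD11b and CD11c, and markers of such cells were still listed. The part of such cells in these falls was not tested.

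The windows before *Itgal* and *Itgb2* are shown because the 2 chains of LFA-1 fell together.
*Itgal*, chr7:126895182-126895431, plus strand: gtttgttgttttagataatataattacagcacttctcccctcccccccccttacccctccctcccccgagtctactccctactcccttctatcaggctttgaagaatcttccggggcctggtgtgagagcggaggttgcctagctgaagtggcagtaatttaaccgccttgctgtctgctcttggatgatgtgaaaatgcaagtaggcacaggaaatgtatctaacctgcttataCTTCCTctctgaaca
*Itgb2*, chr10:77365836-77366085, plus strand: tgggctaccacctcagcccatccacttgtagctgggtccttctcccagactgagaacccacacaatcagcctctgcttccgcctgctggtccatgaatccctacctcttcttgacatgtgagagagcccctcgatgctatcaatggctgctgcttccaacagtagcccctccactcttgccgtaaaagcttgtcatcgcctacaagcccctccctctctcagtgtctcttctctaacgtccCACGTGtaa
Of the motifs searched, the *Itgal* window held only AGGAAG, the letters bound by ETS factors, on the minus strand 15 to 10 bases before the start. The *Itgb2* window held only the E-box CACGTG, 9 to 4 bases before the start. ETS letters were in 28.4% and the E-box in 7.80% of the 12064 windows, so the pair shared none of the motifs searched. TGANTCA, the letters bound by AP-1, were in 4.63% of windows and in none of the 9.

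*Cd44* (ENSMUSG00000005087, chr2:102641486-102732010, minus strand) was the member whose groups overlapped. It was measured at 6610, 6551 and 6096 in vehicle and at 6598, 4713 and 5677 in melatonin samples. Melatonin replicate 1 lay among the vehicle values and the other two lay below them. The log2 fold change of -0.19 (SE 0.12, interval -0.46 to 0.07) was not called (adjusted p = 0.20, limma). Without melatonin replicate 1 it was -0.31 and called, and with that replicate alone it was 0.04.

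**Figure D2:**
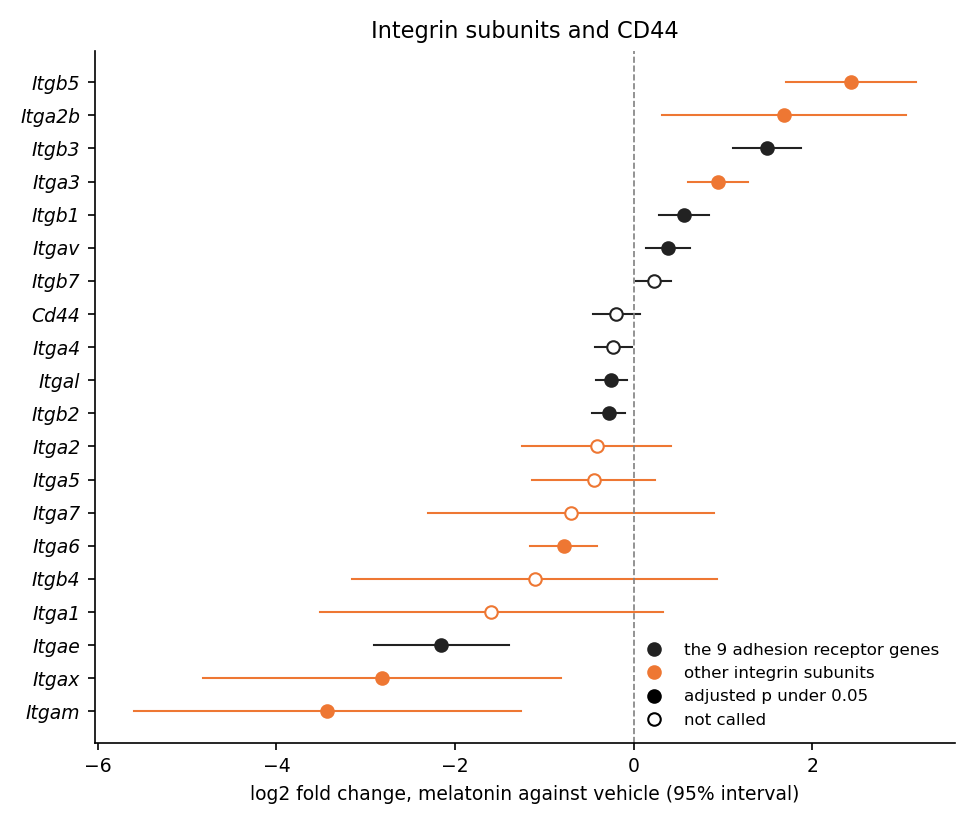
Log2 fold change of melatonin against vehicle with its 95% interval for the 9 genes (black) and the 11 other integrin subunits tested (orange), with filled symbols for adjusted p under 0.05 and open symbols for genes not called. *Itgb5* and *Itgb3* lie far to the right at 2.43 and 1.49, with *Itga2b*, near the floor in vehicle, between them, and *Itgae*, *Itgax* and *Itgam* far to the left, the latter with wide intervals.

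To compare levels between genes, normalised counts were divided by the length of the canonical transcript. In vehicle samples *Itgb7* had the highest level, 5454 ± 94.3 normalised counts per kilobase, followed by *Itgb2* (3378 ± 163) and *Itgal* (1538 ± 44.2). *Cd44* (1135 ± 49.8) and *Itgb3* (1097 ± 46.6) overlapped and cannot be ordered. *Itgb1* stood at 356 ± 7.38, *Itgav* at 91.3 ± 8.30, *Itga4* at 70.6 ± 3.18 and *Itgae* at 15.1 ± 1.83 per kilobase, each apart from the next. For each of the 6 α and β pairs, the β transcript was the more abundant per kilobase in every sample.

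In melatonin samples *Itgb7* was again first, at 6377 ± 649 per kilobase. *Itgb3* came next at 3169 ± 919 and overlapped with *Itgb2* at 2780 ± 186. The levels per kilobase of *Itgal* (1292 ± 79.4), *Cd44* (1002 ± 167), *Itgb1* (533 ± 100.3), *Itgav* (119 ± 10.9), *Itga4* (60.1 ± 2.33) and *Itgae* (3.46 ± 1.61) followed without overlap. The change in the order was that *Itgb3* passed *Itgal* and lay apart from *Cd44*. Dividing by the length of all exons instead exchanged *Cd44* and *Itgb3* in vehicle, where they overlapped in either case.

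The ratio of partner subunits within a sample does not depend on how that sample was scaled. The β3 to αV ratio of levels per kilobase was 13.2, 11.01 and 12.0 in vehicle and 35.6, 24.2 and 20.4 in melatonin samples. The β7 to αE ratio was 326, 348 and 419 in vehicle and 1350, 2702 and 2081 in melatonin samples. In both pairs the β chain was in larger excess in every melatonin sample than in any vehicle sample. For α4, the β1 to α4 ratio went from 5.05 ± 0.205 to 8.83 ± 1.31 and the β7 to α4 ratio from 77.4 ± 3.81 to 106 ± 7.49 (SD, n = 3 each), without overlap. Between the β chains, β3 to β1 rose from 3.08 ± 0.195 to 5.89 ± 0.698 and β7 to β1 went from 15.3 ± 0.573 to 12.1 ± 1.33, again without overlap.

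On the log2 scale, the ratio of α to β chain changed by -2.37 for *Itgae* to *Itgb7*, -1.11 for *Itgav* to *Itgb3*, -0.80 for *Itga4* to *Itgb1* and -0.45 for *Itga4* to *Itgb7*. The LFA-1 ratio, *Itgal* to *Itgb2*, was 0.491, 0.448 and 0.430 per kilobase in vehicle and 0.466, 0.442 and 0.488 in melatonin samples. These values overlapped, with a log2 difference of 0.03. The *Itgav* to *Itgb1* ratio overlapped as well, with a log2 difference of -0.18, which ranged from -0.36 to -0.037 with a library left out. Of the 8 ratios, the 6 whose groups did not overlap gave p = 0.1 by the exact two-sided permutation test (adjusted over the 8 ratios, p = 0.13), which is the smallest p that 3 against 3 samples allow. The LFA-1 ratio gave p = 0.8 and the *Itgav* to *Itgb1* ratio p = 0.5 by the same exact test.

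**Figure D3:**
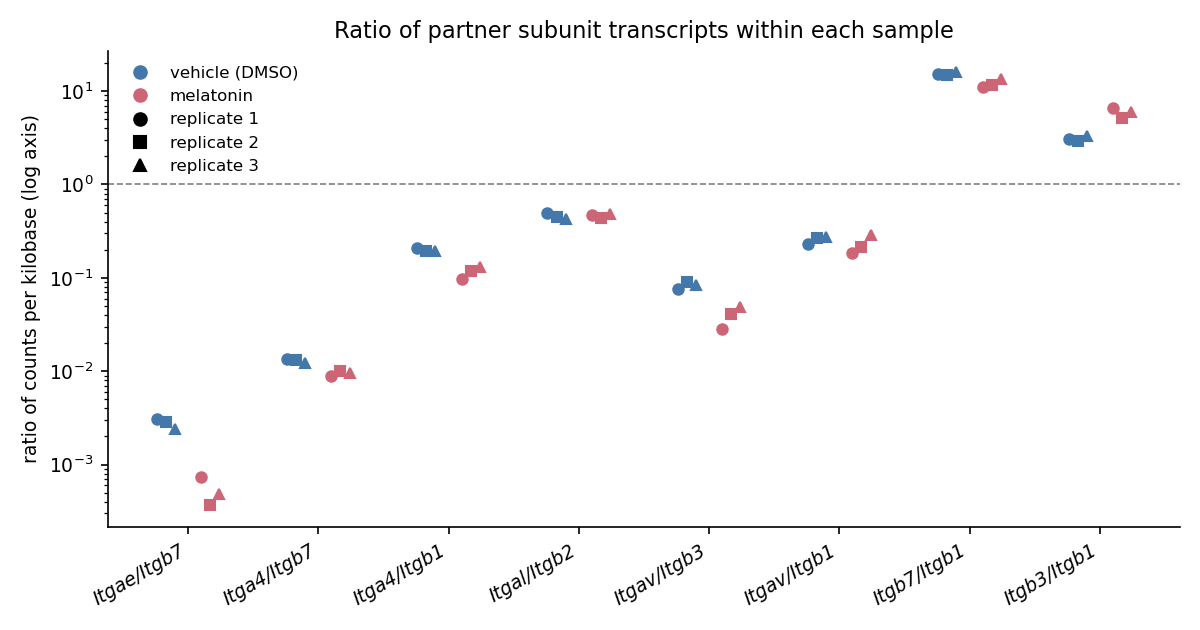
Ratio of normalised counts per kilobase of 2 subunits within each sample (log axis) for the 8 pairs, blue for vehicle and red for melatonin samples, with a dashed line at equal levels. The groups are separate for 6 pairs and overlap for *Itgal* to *Itgb2* and *Itgav* to *Itgb1*.

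The counts for the other adhesion gene lists stand beside 24.5% of all tested genes called higher, 24.7% lower and 49.2% in either direction. The share called in either direction was 54.5% of the other integrin subunits, 33.3% of the ligands, 54.5% of the activators and brakes and 50.0% of the kinases, adaptors and actin linkers. It was 6 of the 10 hyaluronan and sheddase genes, 47.1% of the other adhesion molecules, 61.5% of the tetraspanins and 72.2% of the TGF-β and residency genes. These counts include called genes that reached 10 normalised counts only in the group where they were higher, among them *Itga2b*, *Vcam1*, *Fermt2*, *Mmp14*, *Cd2*, *Tgfbr3* and *Lrrc32*, whose calls support nothing about their lists.

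Of the other integrin subunits, 11 of 19 were tested, 3 were called higher and 3 lower, with a median log2 fold change of -0.70. *Itgb5*, the gene of β5, which also pairs with αV, was measured at 17.7, 19.7 and 33.0 normalised counts in vehicle and 128, 172 and 91.5 in melatonin samples. It rose by a log2 fold change of 2.43 (SE 0.32, adjusted p = 0.00047, limma), with no overlap between the groups. *Itga3*, the α chain of a laminin receptor, rose from 104 ± 4.87 to 201 ± 17.8. *Itga2b* was at 0.94 to 2.80 in vehicle, within the floor of 3 counts, and at 5.60 to 14.1 in melatonin samples. It entered the test only through melatonin replicate 3. Its call was held in none of the sets with another library left out, and without that replicate it was not tested. *Itga6*, the α chain of another laminin receptor, fell from 674 ± 149 to 384 ± 27.6 (log2 fold change -0.79, adjusted p = 0.0046, limma).

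*Itgam* (CD11b) and *Itgax* (CD11c), the myeloid partners of β2, were used in the sort to remove cells and were still listed. *Itgam* was measured at 61.6, 55.4 and 56.7 normalised counts in vehicle and at 0, 5.46 and 24.1 in melatonin samples, and *Itgax* at 132, 113 and 106 in vehicle and at 1.87, 33.9 and 45.2 in melatonin samples. Melatonin replicate 1 was the lowest for both genes. Both were called lower (log2 fold changes -3.43 and -2.82, limma), and without melatonin replicate 1 the changes were -2.21 and -1.55. The *Itgax* call was lost without vehicle replicate 1 (-2.73), vehicle replicate 2 (-2.84) or vehicle replicate 3 (-2.89). The macrophage or dendritic cell marker sum, led by *Lyz2* at 996 ± 92.2 in vehicle and 487 ± 206 in melatonin samples, moved the same way. The part of such cells in these falls was not tested. The remaining 5 tested subunits, *Itga1*, *Itga2*, *Itga5*, *Itga7* and *Itgb4*, were not called.

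Among the ligands of these receptors, 12 of 18 genes were tested, with 1 called higher, 3 lower and a median log2 fold change of -0.40. *Icam2*, a ligand of LFA-1, fell from 945 ± 33.6 to 612 ± 102, and *Vcam1*, the ligand of α4β1, from 17.9 ± 4.50 to 2.08 ± 2.19, having entered the test through the vehicle samples only. *Tgfb1*, whose latent form binds αV integrins, fell from 5310 ± 169 to 3343 ± 344 (log2 fold change -0.67, adjusted p = 0.00046, limma). *Lamc1*, a laminin chain, rose from 941 ± 176 to 1393 ± 31.5. *Icam1*, the main LFA-1 ligand, was at 1812 ± 60.6 in vehicle and 1455 ± 284 in melatonin samples and was not called (adjusted p = 0.056, limma). Without melatonin replicate 1 the list had 2 genes higher and 5 lower, and without vehicle replicate 1 it had 2 higher. *Madcam1* and *Vtn* (vitronectin) were among the 6 genes that were not listed.

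The intracellular activators of integrins and their brakes were split, with 5 of 22 tested genes higher, 7 lower and a median log2 fold change of -0.03. The median lay between -0.12 (without vehicle replicate 1) and 0.01 (without vehicle replicate 2) when a library was left out. Genes of integrin activation moved both ways. *Tln1*, the gene of talin 1, fell from 7885 ± 585 to 4866 ± 294 (log2 fold change -0.70), and *Fermt3*, the leukocyte kindlin, from 11937 ± 259 to 6898 ± 601 (-0.79, limma, adjusted p = 0.00033 and 0.00017). *Rap1a*, a small GTPase that recruits talin, fell from 3610 ± 322 to 2344 ± 194. The related *Rap1b*, more abundant than *Rap1a*, was at 15995 ± 1072 in vehicle and 15623 ± 775 in melatonin samples and was not called.

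The brakes named here, *Flna*, *Rasa3* and *Sipa1*, moved in both directions. *Flna*, the gene of filamin A, which competes with talin for the β tail, fell from 15190 ± 626 to 8796 ± 1558. *Rasa3* and *Sipa1*, which switch Rap1 off, rose from 915 ± 94.3 to 2504 ± 352 and from 2790 ± 109 to 3440 ± 291. *Rasa3* showed the largest rise among the genes of this list with a mean of at least 100 (log2 fold change 1.45, SE 0.12, adjusted p = 6.4e-05, limma). *Cyth1*, which binds the β2 tail, rose from 1601 ± 41.0 to 2444 ± 287, and the adaptor gene *Skap1* from 9930 ± 350 to 12340 ± 423. *Sipa1* was not called without vehicle replicate 1 (0.29) or vehicle replicate 2 (0.28). The remaining gene called higher, *Fermt2*, was at 1.28 ± 0.508 in vehicle, within the floor of 3 counts, and 10.8 ± 2.10 in melatonin samples.

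Kinases, adaptors and actin linkers that act once integrins have bound were called higher for 7 and lower for 4 of 22 tested genes, with a median log2 fold change of 0.13. *Vcl*, the gene of the talin-binding linker vinculin, was measured at 237, 220 and 209 normalised counts in vehicle and at 707, 837 and 949 in melatonin samples and rose by 1.89 on the log2 scale (SE 0.13, adjusted p = 2.9e-05, limma). *Ptk2*, the gene of focal adhesion kinase, rose from 312 ± 42.1 to 752 ± 93.0, and its substrate gene *Bcar1* from 72.6 ± 12.1 to 242 ± 53.4. *Nedd9*, a relative of *Bcar1*, rose from 1349 ± 65.1 to 2192 ± 278. The leukocyte parvin gene *Parvg* fell from 5237 ± 138 to 2836 ± 94.1, and *Vasp*, an actin elongation factor, from 3348 ± 98.2 to 1715 ± 146. *Src* fell from 246 ± 22.5 to 148 ± 42.8 and *Ezr*, a linker of membrane proteins to actin, from 5723 ± 171 to 4747 ± 423. *Msn*, another such linker, rose from 21059 ± 1032 to 28836 ± 3631 (log2 fold change 0.45, adjusted p = 0.0077, limma), and *Rdx* was not called. The *Ezr* call was lost without vehicle replicate 1 (-0.30), vehicle replicate 2 (-0.27) or vehicle replicate 3 (-0.25), and the *Src* call without vehicle replicate 3 (-0.69). Without vehicle replicate 3, the number called lower was 2, and the median was 0.05 without vehicle replicate 2, 0.05 without melatonin replicate 2 and -0.01 with a correction for transcript length.

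Around CD44, 10 of 12 genes of hyaluronan turnover and shedding were tested, 5 were higher and 1 lower, with a median of 0.20. *Adam10* and *Adam17*, proteases that cleave CD44 from the surface, rose from 2491 ± 55.5 to 3753 ± 231 and from 2739 ± 104 to 4825 ± 694. *Adam17* changed by 0.81 on the log2 scale (SE 0.11, adjusted p = 0.00050, limma). *Cemip2*, a membrane protein linked to hyaluronan breakdown, rose from 405 ± 18.4 to 515 ± 55.4, and the hyaluronan receptor gene *Hmmr* from 2203 ± 102 to 2635 ± 284, both called in only 1 of the 6 sets with a library left out. *Hyal3* was at 6.90 ± 5.59 and 21.3 ± 2.48, was likewise called in only 1 of those sets, and changed by 1.07 in place of 1.86 on the log2 scale without vehicle replicate 3. In the opposite direction, the membrane protease gene *Mmp14*, which entered the test through the vehicle samples only, fell from 27.1 ± 5.68 to 3.24 ± 2.91. The number called higher was 2 or 3 whichever library was left out, and without melatonin replicate 1 the number called lower was 2. The median was 0.34, 0.12 and 0.32 without melatonin replicates 1, 2 and 3, and 0.31 and 0.04 without vehicle replicates 2 and 3.

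Among selectins and other leukocyte adhesion molecules, 2 of 17 tested genes were higher and 6 lower, with a median log2 fold change of -0.60. *Pecam1*, a homophilic receptor used in passage through endothelium, fell from 1040 ± 34.6 to 357 ± 54.3, and *Cd48* from 5605 ± 343 to 2086 ± 314. *Cd226*, the receptor of nectin-like ligands, fell from 902 ± 42.4 to 596 ± 21.7. The summed NK cell or ILC1 and T cell markers moved the same way. The sort was gated against CD3ε, TCRs and CD335, and markers of such cells were still listed. The part of such cells in these falls of *Pecam1*, *Cd48* and *Cd226* was not tested. *Alcam*, the ligand of CD6, rose from 124 ± 16.1 to 395 ± 96.6, and the sialomucin gene *Cd164* from 3830 ± 196 to 6047 ± 372. *Selplg*, the gene of the main selectin ligand PSGL-1, was at 16723 ± 184 and 18116 ± 3954 and was not called.

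Tetraspanins, which organise integrins in the membrane, had 5 of 13 tested genes higher and 3 lower, with a median of 0.18. The median was -0.02, 0.29 and 0.30 without melatonin replicates 1, 2 and 3, and 0.11 without vehicle replicate 2. *Tspan4* fell from 409 ± 6.87 to 77.0 ± 11.8, *Cd63* from 169 ± 15.7 to 38.8 ± 9.43 and *Cd82* from 9945 ± 51.8 to 6394 ± 990. *Tspan13* rose from 4425 ± 186 to 8670 ± 841, *Tspan31* from 3164 ± 107 to 5827 ± 1028 and *Tspan32* from 1267 ± 25.1 to 1936 ± 292. *Cd53*, the most abundant of the list in counts, rose from 32597 ± 1872 to 45473 ± 6639, and *Tspan3* was the fifth gene called higher, a call that was lost without melatonin replicates 1 (0.21) or 2 (0.29) and vehicle replicates 1 (0.26) or 3 (0.22). *Cd9*, *Cd37*, *Cd81*, *Cd151* and *Tspan14* were not called.

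TGF-β induces CD103 in tissue lymphocytes, and genes of TGF-β signalling and tissue residency had 6 of 18 tested genes higher and 7 lower, with a median of -0.09. The median was -0.14 without melatonin replicate 1 and 0.007 without melatonin replicate 2. The call of *Lrrc32* among the 7 was lost without vehicle replicate 1 (-2.41). That of *Ski*, also among the 7, was lost without vehicle replicates 1 (-0.42) or 2 (-0.52) and melatonin replicate 2 (-0.32). Among the 6, the call of *Smad2* was lost without melatonin replicates 2 (0.24) or 3 (0.28) and vehicle replicates 1 (0.18) or 3 (0.27). *Tgfb3* fell from 293 ± 46.5 to 52.0 ± 16.5 beside *Tgfb1*, while the receptor gene *Tgfbr2* rose from 4464 ± 116 to 5559 ± 660, a call that was lost without vehicle replicate 1 (0.32), vehicle replicate 2 (0.29) or vehicle replicate 3 (0.32). *Smad4*, the shared signal carrier, rose from 295 ± 53.1 to 1189 ± 645, and *Skil*, a repressor of SMADs, from 829 ± 22.4 to 1165 ± 74.6. *S1pr1*, the receptor that draws lymphocytes out of tissue, fell from 1294 ± 58.1 to 199 ± 90.8 (log2 fold change -2.83, adjusted p = 0.00027, limma). *Klf2*, a transcription factor that drives *S1pr1* in T cells, rose from 104 ± 49.7 to 355 ± 108, in the direction opposite to *S1pr1*.

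**Figure D4:**
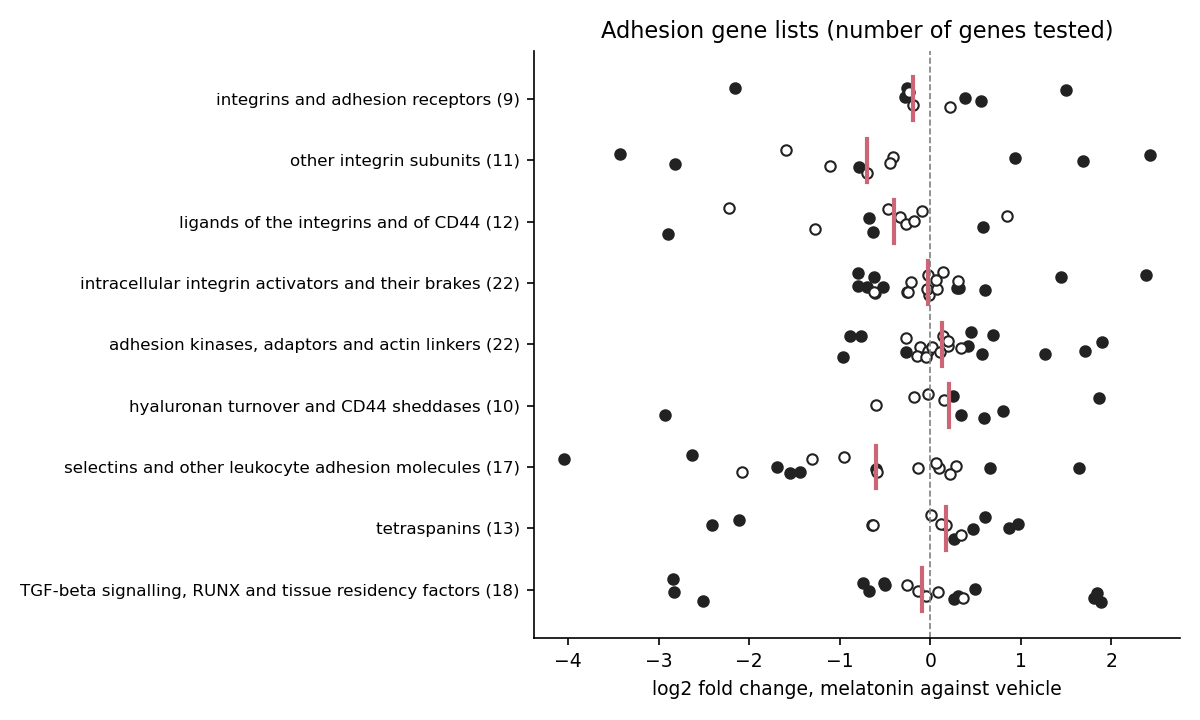
Log2 fold change of melatonin against vehicle for each tested gene of the 9 adhesion gene lists, with the number tested in parentheses, filled circles for genes with adjusted p under 0.05, open circles for the rest and a red bar for each list's median. The medians lie between -0.70 (other integrin subunits) and 0.20 (hyaluronan turnover and CD44 sheddases), and genes called lie on both sides of 0 in every list, for the hyaluronan list only through *Mmp14*, which reached 10 normalised counts in vehicle samples alone.

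The pattern of each member over the 6 samples was compared with those of 9989 other genes with a mean of at least 100 (9990 for *Itgae*), as a description over 6 samples that share libraries and fall in 2 groups. Many genes were nearly as alike, from 25 with r above 0.95 for *Cd44* to 417 for *Itgae* and 1117 for *Itgb3*, so the single gene named for each member is 1 of many. The most alike gene was *Natd1* for *Itgb3* (r = 1.00) and *Asah1*, the acid ceramidase gene, for *Itgb1* (r = 0.999). For *Itgav* it was *Rbbp9* (r = 0.999), and for *Itgb7* it was *Slc25a45* (r = 0.998). *Itgae* was most like *Galns*, a lysosomal sulfatase gene (r = 0.999), *Itga4* most like *Rgs14* (r = 0.998) and *Itgal* most like *Ppp1r18* (r = 0.998). *Itgb2* and *Cd44* had the lowest best values, 0.990 with *Ap1m1* and 0.984 with *Foxj3*. Within the members, *Itgb1* and *Itgb3* had r = 0.97 and *Itgae* and *Itgal* r = 0.99, whereas the partners *Itgae* and *Itgb7* had r = -0.57 over the same 6 samples.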

How the data were processed

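Lung aILC2s were profiled by bulk RNA sequencing in 3 melatonin and 3 vehicle samples. Per the labels, 10 ng of RNA entered each library, whereas the study's methods give 10 pg. The authors built unstranded SMARTer libraries, trimmed reads, aligned them with STAR to mm39 in Partek Flow, estimated gene counts and removed genes under 10 counts. The deposited values are a normalized signal, the estimated count divided by a DESeq2 size factor, so they are not raw counts. In each sample the smallest spacing of low values gave the worth of 1 read, from which totals and a floor of 3 counts were derived.

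Values were compared as log2(value + 1) by limma 3.58.1 (R 4.3.3) with a mean-variance trend, treatment as the only term and Benjamini-Hochberg adjustment at 0.05. Only genes reaching 10 normalized counts in 1 or more samples were tested. The added 1 shrinks the fold changes of low genes. A value near 0 in 1 sample can still take the log2 fold change beyond that of the group means. *Itgam* was such a gene (-3.43, with a melatonin mean of 0.170 of the vehicle mean). The procedure was tested on simulated data. Partner ratios were compared by exact permutation tests. Symbols came from Gencode M39 (16334 of 16381 gene identifiers matched), and lengths, positions and sequences from GRCm39 with that annotation, each window ending at the base before the start of the canonical transcript. No 2 samples of a group agreed within counting error, so none was counted as a duplicate.

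The 9 members and all gene lists were chosen with earlier results of these data known. All members are named, and from each list up to 4 called genes in each direction, those that changed most, given a mean of 100 or more and no overlap between groups, together with genes needed to account for counts of 5 or fewer. Genes named beyond this, such as *Itgb5*, *Itgam*, *Itgax*, *Icam1*, *Rap1b*, *Msn*, *Rdx* and *Selplg*, were chosen after their values were seen. Alternatives changed the pseudocount, filter, scaling, variance model, correction for length or GC content, and samples.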

Additional observations from a re-analysis of the deposited data

How the results depend on the processing

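*Itgae*, *Itgb1* and *Itgb3* kept their direction and call under every alternative run (*Itgae* was not in the fit of genes with a mean of at least 100), including each library left out (-2.49 to -1.89, 0.42 to 0.68 and 1.27 to 1.61). The calls of the other members moved with the setting. The number called lower was 1 without the variance trend, 5 with sample weights, 1 in the fit with melatonin replicate 1 as the only melatonin sample, which was added after seeing the data, and 1 to 5 with a library left out. *Itga4* became called with the mean filter (-0.23), upper quartile scaling (-0.28), quantile normalization (-0.30), sample weights (-0.24) and GC correction (-0.37), and ranged from -0.26 to -0.20 with a library left out. *Itgb7* became called with scaling to the same total (0.26), quantile normalization (0.34), GC correction (0.28) and melatonin replicate 1 alone (0.38), fell to 0.12 with length correction (adjusted p = 0.25, limma), and ranged from 0.14 to 0.27 with a library left out. *Itgal* and *Itgb2* lost their calls with quantile normalization (-0.13 and -0.14), without the trend (-0.25 and -0.28), with GC correction (-0.15 and -0.18) and with melatonin replicate 1 alone (-0.15 and -0.19), fell further, and stayed called, with length correction (-0.42 and -0.41), and ranged from -0.30 to -0.22 and from -0.33 to -0.23 with a library left out. *Itgav* lost its call with length correction (0.30) and GC correction (0.30), and ranged from 0.31 to 0.45. *Cd44* became called with sample weights (-0.31) and length correction (-0.35), turned to 0.041 with melatonin replicate 1 alone, and ranged from -0.31 to -0.068. The *Itgal* to *Itgb2* ratio ranged from -0.012 to 0.083 with a library left out, and its sign reversed without vehicle replicate 3 (-0.012) and melatonin replicate 3 (-0.0052). The cause of these shifts was not tested.

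The replicate numbers do not pair the samples (correlations of same-number deviations of -0.05, 0.01 and -0.05). With the replicate block, 3160 genes were called higher and 3278 lower, beside 3529 and 3565 without it, and the members' calls were unchanged. In the hyaluronan list, the number called higher fell from 5 to 2 with the block. Depth limits *Itgae*, *Itgam* and *Itga2b*, whose counts were low.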
